A study of Homo sapiens with 24 samples.

Results

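The baseline difference between the human leukemia lines UT-7 and UCSD-AML1 was read from RNA-seq libraries of cells that had received vehicle only. These were 4 UT-7 libraries and 4 UCSD-AML1 libraries, 8 of the 24 libraries of the series, and they were chosen by their labels alone. Both groups were labelled acute myeloid leukemia, blood as the tissue and bone marrow as the source, and were harvested after 24 hours with vehicle. The labels name no engineered allele and no other agent for either line. The remaining libraries, TF-1 with vehicle and all 3 lines with 3 mM cyclocreatine, a creatine analog, were used to estimate the spread and as values to set beside the baseline. Each group was 1 established line. The p-values rest on the spread between libraries within groups, pooled over the 24 libraries, and not on that between patients. Nothing in the labels ties a line's 4 libraries to separate cultures, and that spread may be technical. The labels of these libraries give neither medium nor added growth factors, so that a difference in culture and a difference between the lines cannot be told apart.

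UT-7 is a growth factor-dependent line with erythroid and megakaryocytic potential, and it is widely used for its response to erythropoietin. UCSD-AML1 was established from a leukemia with a rearranged long arm of chromosome 3, the event that places the gene MECOM under a blood enhancer of GATA2. MECOM encodes the zinc finger protein EVI1, a regulator of blood stem cells, and the series describes all 3 lines as driven by EVI1. GATA1 and its partners TAL1 and KLF1 turn on globin, heme and membrane genes during red cell formation. GATA2, with KIT, marks early progenitors and mast cells, SPI1 and CEBPA direct granulocyte and monocyte formation, and RUNX1 acts across stem, myeloid and platelet cells.

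Counts per gene totalled 12874459 to 15115540 in the UT-7 libraries and 14297926 to 17414130 in the UCSD-AML1 libraries. Levels are given as CPM, counts per 1000000 counts of the scaled library total, and differences as log2 or fold values of UT-7 against UCSD-AML1. A gene was called where its adjusted p was below 0.05. Of 14588 genes tested, 11889 (81.5%) were called, 5838 (40.0%) higher in UT-7 and 6051 (41.5%) higher in UCSD-AML1. At 2-fold or more, 5685 (39.0%) were called, 2763 (18.9%) higher in UT-7 and 2922 (20%) higher in UCSD-AML1. Differences of 16-fold or more were called for 901 genes higher in UT-7 and 918 higher in UCSD-AML1. The 4 libraries of UT-7 and the 4 of UCSD-AML1 did not overlap at 11664 genes (80.0%). A single gene that passes the test is therefore the usual case here, and the sizes below carry more than the calls. The list counts below stand beside 40.0% of all genes higher in UT-7 and 41.5% higher in UCSD-AML1. At 2-fold or more the shares are 18.9% and 20%. The median difference over all genes was 0 and its median size was 0.738 on the log2 scale, against a median SD of log2 CPM between libraries of 0.0813 in UT-7 and 0.0803 in UCSD-AML1. Correlations of log2 CPM across genes were at least 0.9943 between libraries of 1 line and 0.7433 to 0.7497 between libraries of the 2 lines.

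**Figure D1:**
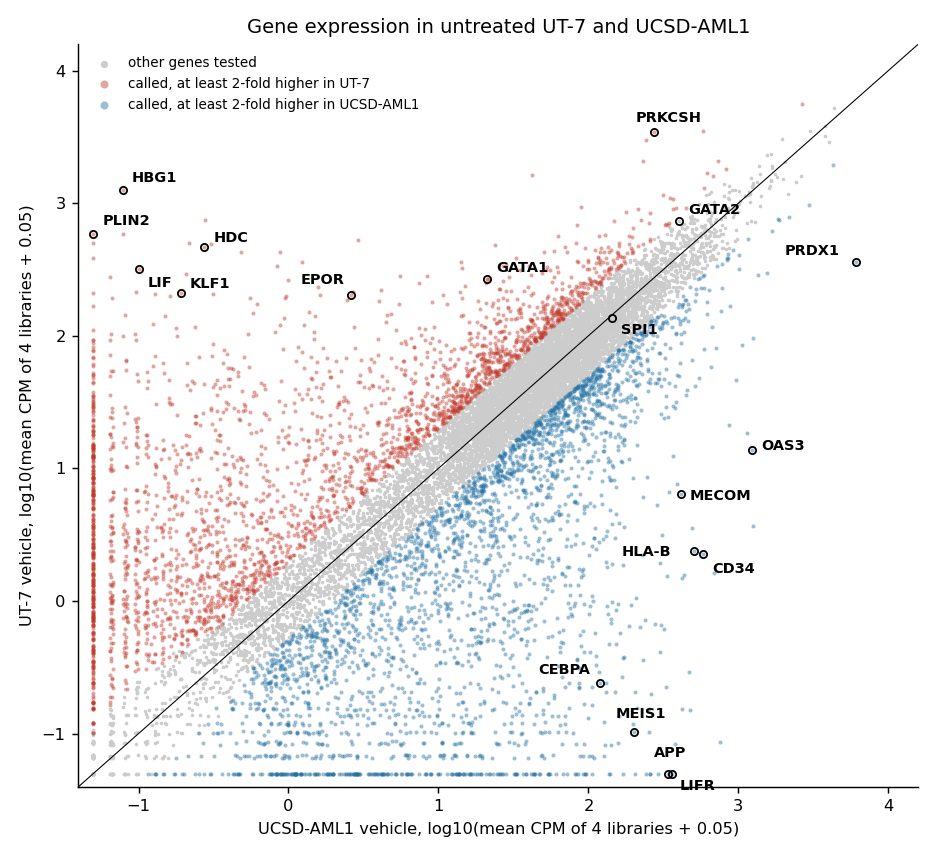
Mean level of each tested gene in UCSD-AML1 (x axis) and UT-7 (y axis), as log10 of the mean CPM of 4 vehicle libraries plus 0.05, with the line of equal levels. Red points are the 2763 genes called at 2-fold or more higher in UT-7, blue points the 2922 higher in UCSD-AML1, and labelled genes are described in the text. The vertical and horizontal rows of points at the left and lower edges are genes with no or few counts in 1 line.

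MECOM stood far higher in UCSD-AML1. It measured 6.48, 7.24, 5.46 and 6.19 CPM in the 4 UT-7 libraries and 408, 419, 428 and 394 CPM in the 4 UCSD-AML1 libraries. No UT-7 library came near the UCSD-AML1 range, and the difference was 65.0-fold (log2 -6.02, SE 0.126, adjusted p 2.89e-22). TF-1 lay near UT-7, at 13 CPM. Of the genes listed around GATA2 and MECOM on chromosome 3, 21 of 23 were tested, 14 were higher in UCSD-AML1, against 41.5% of all genes tested, 4 were higher in UT-7, against 40.0%, and the median was -0.344 on the log2 scale. At 2-fold or more 3 were higher in UCSD-AML1 (20% of all genes) and 1 in UT-7 (18.9%). These were, apart from MECOM, LRRC34 (1.60 CPM in UT-7 against 8.93 CPM), GPR160 (5.41 against 19 CPM) and, in the other direction, SERPINI1 (11.7 against 1.29 CPM). MECOM differed most among the 21 tested. Over all tested genes of chromosome 3, 61.9% were higher in UCSD-AML1 and 22.9% in UT-7, with a median of -0.624. Counted at any size, the shares of this list are therefore near those of its chromosome.

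GATA1, KLF1 and TAL1, regulators of red cell formation, were higher in UT-7. GATA1 measured 259, 271, 274 and 262 CPM in UT-7 and 21.9, 22, 19.9 and 20.2 CPM in UCSD-AML1, a 12.7-fold difference (log2 3.66, SE 0.0533, adjusted p 7.38e-39). KLF1, the factor that activates adult globin genes, measured 209, 213, 212 and 201 CPM in UT-7, while the UCSD-AML1 libraries held 9 counts in all, at 0.125 to 0.171 CPM. For both genes the lowest UT-7 library lay above the highest UCSD-AML1 library. The libraries of the lines did not overlap at 80.0% of all genes tested. TAL1 was 3.25-fold higher in UT-7 (841 ± 9.37 against 259 ± 4.10 CPM; SD, n = 4 each). GATA2 differed by less, at 736 ± 20.6 CPM in UT-7 and 401 ± 8.23 CPM in UCSD-AML1, or 1.83-fold (adjusted p 8.31e-26). BCL11A, a repressor of fetal globin genes, was higher in UCSD-AML1, at 1.45 ± 0.311 CPM in UT-7 and 59.0 ± 4.01 CPM in UCSD-AML1.

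Myeloid and stem cell regulators held both directions. CEBPA measured 0.0705, 0.345, 0.190 and 0.149 CPM in UT-7, 11 counts in all, against 119, 121, 119 and 119 CPM in UCSD-AML1 (601-fold, log2 -9.23, SE 0.131). SPI1 did not pass the test, with 136 ± 5.79 CPM in UT-7 and 144 ± 6.82 CPM in UCSD-AML1 (adjusted p 0.135), and its libraries overlapped. RUNX1 was 1.70-fold and GFI1B 1.82-fold higher in UCSD-AML1. GFI1, the paralog of GFI1B and a repressor in granulocyte precursors, was found at 57.0 ± 0.353 CPM in UT-7 and 0.343 ± 0.120 CPM in UCSD-AML1, 159.7-fold apart. The homeobox factor MEIS1 had 3 counts over the 4 UT-7 libraries and 197, 202, 202 and 198 CPM in UCSD-AML1, a ratio of 3851 (95% counting interval 1318 to 18678). Where a line had 0 counts of a gene, 3 counts over the group were taken as the floor of a fold. That floor corresponds to 0.0519 CPM in UT-7 and 0.0475 CPM in UCSD-AML1 and covers counting error only. Over the 27 tested of 30 stem and progenitor transcription factors, 12 were higher in each line and the median was -0.0578. Of 39 HOX genes, which pattern the body and mark early blood cells, 19 were tested, 6 were higher in UT-7 and 8 in UCSD-AML1. Of all genes tested, 40.0% were higher in UT-7 and 41.5% in UCSD-AML1. At 2-fold or more 5 HOX genes were higher in UT-7 and 8 in UCSD-AML1, against 18.9% and 20% of all genes. The list summed to 98.5 to 108.7 CPM per UT-7 library and 100.2 to 112.8 CPM per UCSD-AML1 library. HOXA7, HOXA10, HOXA11 and HOXA9 had 0, 1, 2 and 0 counts over the UT-7 libraries and 6.14, 18.8, 24.3 and 1.94 CPM in UCSD-AML1. HOXD13 had 4.71 CPM in UT-7 and 2 counts in UCSD-AML1.

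**Figure D2:**
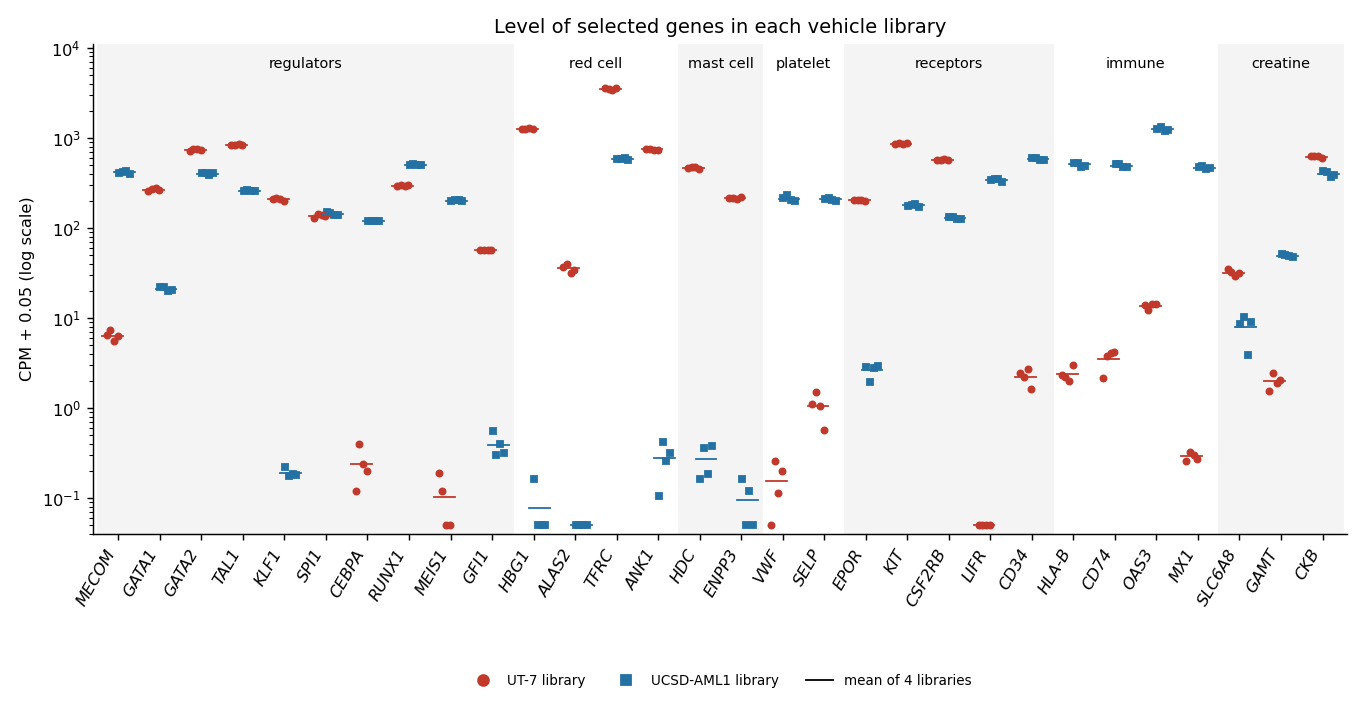
Level of 30 genes in each vehicle library, as CPM plus 0.05 on a log axis, with UT-7 libraries as red circles, UCSD-AML1 libraries as blue squares and the mean of 4 libraries as a bar. Apart from SPI1, the libraries of the lines do not overlap at any gene drawn, as at 80.0% of all genes tested. Points at the bottom are libraries with 0 counts.

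Red cell products were also higher in UT-7. Hemoglobin is built from globin chains and heme groups, and the gamma chains HBG1 and HBG2 belong to its fetal form. HBG1 measured 1251, 1252, 1294 and 1266 CPM in UT-7 and HBG2 555, 579, 613 and 593 CPM, while each had 2 counts in UCSD-AML1, both in 1 library. The count ratio was 39952 for HBG1 (95% counting interval 11059 to 329901). HBG1 and HBG2 are near-identical copies, as are the alpha chain genes, and how the counting divided their reads is uncertain. HBE1, the embryonic chain, stood at 15.4 ± 1.48 CPM in UT-7, HBA1 at 14.9 ± 0.995 CPM, HBB, the adult beta chain, at 8.54 ± 1.39 CPM, and AHSP, a chaperone of alpha globin, at 10.1 ± 1.79 CPM, with 0 or 1 count in UCSD-AML1. All 10 tested members of 11 in the globin list were higher in UT-7, with a median of 9.67, or 7.61 with genes at 0 counts set to their floor. A gene with no count in 1 line passed the filter through the other, so that these counts describe the tested members and not the whole list.

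Heme and iron genes were more mixed. ALAS2, the red cell enzyme that starts heme synthesis, measured 36.7, 39.8, 31.5 and 34.1 CPM in UT-7 and 0 counts in UCSD-AML1, at least 746-fold higher in UT-7. TFRC, the transferrin receptor that brings iron into the cell, measured 3535, 3454, 3391 and 3569.6 CPM in UT-7 and 575, 588, 594 and 562 CPM in UCSD-AML1, a 6.01-fold difference. TFR2, the second transferrin receptor, was 51.6-fold, SLC40A1, the iron exporter ferroportin, 302-fold, and SLC25A37, the mitochondrial iron importer, 8.78-fold higher in UT-7. HMOX1, which breaks heme down, was 11-fold higher in UCSD-AML1 (1.49 ± 0.199 against 16.5 ± 2.17 CPM). In all, 15 of 23 heme and iron genes were higher in UT-7, 12 of them 2-fold or more, 6 were higher in UCSD-AML1, and the median was 1.06.

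Most genes of the red cell membrane were higher in UT-7. ANK1, the ankyrin that ties the membrane to its spectrin skeleton, measured 759, 754, 738 and 738 CPM in UT-7 and 0.0569, 0.375, 0.207 and 0.266 CPM in UCSD-AML1. XK, which carries the Kx blood group antigen, had 43.7 ± 1.44 CPM in UT-7 and 0 counts in UCSD-AML1. KEL, which carries the Kell blood group, had 53.8 ± 1.92 CPM and EPB42, a skeleton protein, 49.4 ± 1.92 CPM in UT-7, with 1 count each in UCSD-AML1. ADD2, the beta adducin, was among the genes furthest apart, at 167 ± 5.84 CPM in UT-7 and 0 counts in UCSD-AML1 (at least 3521-fold). Over the 26 genes of the list, 21 were higher in UT-7, 19 of them 2-fold or more, 3 were higher in UCSD-AML1, and the median was 3.62. The erythroid regulators and maturation genes gave 15 higher in UT-7 and 4 higher in UCSD-AML1 of 23 tested of 25, with a median of 0.638. CA1, the carbonic anhydrase of red cells, had 192 ± 5.44 CPM in UT-7 and 1 count in UCSD-AML1.

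Red cell promoters often carry the short sequence that GATA factors bind, and 3 from the genes above are shown because they hold it. The letters AGATAA, searched on both strands (TTATCT on the other), occurred in the 250 bases before the start of 8 of 22 globin, heme and membrane genes that were called at 2-fold or more higher in UT-7 and had a promoter entry (36.4%). Without that choice by the difference, they occurred in 8 of the 37 tested members of these lists with an entry (21.6%). Over all tested genes with an entry they occurred in 5.04% of 11248, and over all called at 2-fold or more higher in UT-7 in 7.57% of 2061. Sequences and coordinates are from RefSeq on build GRCh38.p14, each reads 5′ to 3′ toward the gene, and capitals mark the motif. All 3 genes lie on the minus strand: the stretches are chrX:55031069-55031134 for ALAS2, chr15:43221019-43221139 for EPB42 and chr7:142962390-142962455 for KEL.
ALAS2: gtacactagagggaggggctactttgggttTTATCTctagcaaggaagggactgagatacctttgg
EPB42: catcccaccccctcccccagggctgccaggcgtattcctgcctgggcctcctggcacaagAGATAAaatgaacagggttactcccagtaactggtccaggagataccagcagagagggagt
KEL: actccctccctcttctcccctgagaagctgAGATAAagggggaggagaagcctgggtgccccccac
The motif begins 127 bases before the start of ALAS2, 61 before that of EPB42 and 62 before that of KEL. A match describes the letters in this window, and whether a GATA factor binds there was not measured.

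Mast cell, basophil and eosinophil genes were mostly higher in UT-7. HDC, the enzyme that makes histamine, measured 465, 473, 476 and 456 CPM in UT-7 and 0.114 to 0.332 CPM in UCSD-AML1, 14 counts in all. ENPP3, a basophil surface marker, measured 216, 215, 207 and 219 CPM in UT-7 and had 3 counts in UCSD-AML1. The 4 UT-7 libraries lay within a narrow range at both genes. SIGLEC6, a mast cell receptor, had 123 ± 6.01 CPM in UT-7 and 5 counts in UCSD-AML1, and MS4A2, the beta chain of the IgE receptor, had 5.85 ± 0.127 CPM against 0 counts. KIT, the receptor for stem cell factor, measured 854, 866, 851 and 887 CPM in UT-7 and 176, 179.8, 183 and 171 CPM in UCSD-AML1, a 4.87-fold difference (adjusted p 4.52e-35). CTSG, a protease of mast cells and neutrophils, was the largest exception, with 1 count in UT-7 and 100.2 ± 3.39 CPM in UCSD-AML1. Of 24 tested among 29 listed, 20 were higher in UT-7, 18 of them 2-fold or more, 4 were higher in UCSD-AML1, and the median was 4.98.

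Megakaryocyte and platelet genes leaned toward UCSD-AML1. VWF, the adhesive protein stored in platelets and vessel walls, measured 0 to 0.207 CPM in UT-7 and 217, 229, 203 and 198 CPM in UCSD-AML1. SELP, the P-selectin of platelet granules, measured 0.522 to 1.45 CPM in UT-7 and 209, 215, 204 and 201 CPM in UCSD-AML1, 202-fold apart. RAB27B, which moves secretory granules, was 434-fold higher in UCSD-AML1 (1.58 ± 0.0908 against 686 ± 20.4 CPM), and GP9, a part of the VWF receptor, 180.5-fold (0.189 against 35.7 CPM). TREML1 was found in UCSD-AML1 alone, at 8.92 ± 0.513 CPM. ARHGAP6 had 23.5 ± 1.23 CPM in UT-7 and 0 counts in UCSD-AML1. Of 30 tested among 33 listed, 19 were higher in UCSD-AML1, 15 of them 2-fold or more, 9 were higher in UT-7, and the median was -0.985.

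Of 30 tested granulocyte and monocyte genes among 42 listed, 13 were higher in UT-7, 11 of them 2-fold or more, and 14 in UCSD-AML1, 12 of them 2-fold or more. Counted at any size, the shares called are near those over all genes (40.0% and 41.5%). At 2-fold or more the shares of this list are larger in both directions than the 18.9% and 20% over all genes. CSF1R, the receptor for macrophage colony-stimulating factor, measured 0.352 to 0.761 CPM in UT-7 and 325, 326, 313 and 316 CPM in UCSD-AML1 (553-fold). CD93 was 284-fold and the matrix protein VCAN 371-fold higher in UCSD-AML1. IRF8, a monocyte regulator, had 0 counts in UT-7 and 2.83 ± 0.567 CPM in UCSD-AML1. In the other direction ANPEP, the CD13 antigen of myeloid cells, was 279-fold higher in UT-7 (148 ± 4.60 against 0.531 ± 0.203 CPM). FCGR2A, a receptor for antibodies, was 13.4-fold, LYZ, lysozyme, 12.1-fold and CD68, a lysosomal protein of macrophages, 5.89-fold higher in UT-7. These 4 genes were named after their values were seen. CEBPA, CTSG and GFI1, described above, belong to this list too.

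Surface markers of immature cells separated the lines by large factors. CD34, the marker of stem and progenitor cells, measured 2.40, 2.14, 2.67 and 1.57 CPM in UT-7 and 604, 598, 568 and 567 CPM in UCSD-AML1, a 263-fold difference (log2 -8.04, SE 0.0676, adjusted p 3.85e-46). THY1 and PROM1, which also mark early cells, had 0 counts in UT-7 and 32.6 ± 1.09 and 3.63 ± 0.631 CPM in UCSD-AML1. ITGA6, an integrin chain, was 350.1-fold higher in UCSD-AML1. CD36, a scavenger receptor of maturing red cells, monocytes and platelets, measured 428, 425, 416 and 449 CPM in UT-7 and 0.598 to 1.08 CPM in UCSD-AML1. CD38, which appears as progenitors mature, had 8.43 ± 1.02 CPM in UT-7 and 0 counts in UCSD-AML1. Of 31 tested antigens among 33 listed, 18 were higher in UCSD-AML1 and 11 in UT-7, against 41.5% and 40.0% of all genes.

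Genes of other cell types were read as well, since they bear on what each line expresses. Lymphoid markers summed to 14.3 to 17.2 CPM per UT-7 library and 397 to 413 CPM per UCSD-AML1 library. Of 20 tested among 27 listed, 13 were higher in UCSD-AML1, each by 2-fold or more, 2 were higher in UT-7, and the median was -4.13. NCAM1, the CD56 antigen of natural killer cells, accounted for 154, 155, 152 and 143 CPM in UCSD-AML1, and IL7R for 102, 104, 112 and 103 CPM, with 9 and 7 counts in UT-7. LCK, CD5 and CD3E, genes of T cells, had 10.2, 6.42 and 2.70 CPM in UCSD-AML1 and 0 counts in UT-7. PAX5, the defining factor of B cells, had 12.8 ± 0.965 CPM in UCSD-AML1 and 3 counts in UT-7. At most 3 counts were found for 10 of the 27 markers in UT-7 and for 5 in UCSD-AML1, and GNLY, of killer cells and named after its values were seen, had 7 and 6 counts. Vessel, stromal and epithelial markers summed to 122 to 126 CPM per UT-7 library and 631 to 679.6 CPM per UCSD-AML1 library, with 11 higher in UCSD-AML1 and 1 in UT-7 of 15 tested among 21 listed. CDH5, the cadherin of endothelial cells, measured 260.0, 271, 249.8 and 256 CPM in UCSD-AML1 and 0 counts in UT-7. PDGFRB, a receptor of mesenchymal cells, and the keratin gene KRT18 had 69.6 and 93.1 CPM in UCSD-AML1 and 5 and 7 counts in UT-7. CDH1, the cadherin of epithelia and of early red cells, was the member higher in UT-7 (22 against 0.191 CPM), and EPCAM, the defining epithelial marker, named after its values were seen, had 3 counts in UT-7 and 0 in UCSD-AML1. PTPRC, the CD45 antigen of blood cells, named in the same way, had 635 ± 20.3 CPM in UT-7 and 520.5 ± 6.89 CPM in UCSD-AML1. Bulk libraries do not separate many cells with little RNA from few cells with much, and the part of other cells in these values was not tested.

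**Figure D3:**
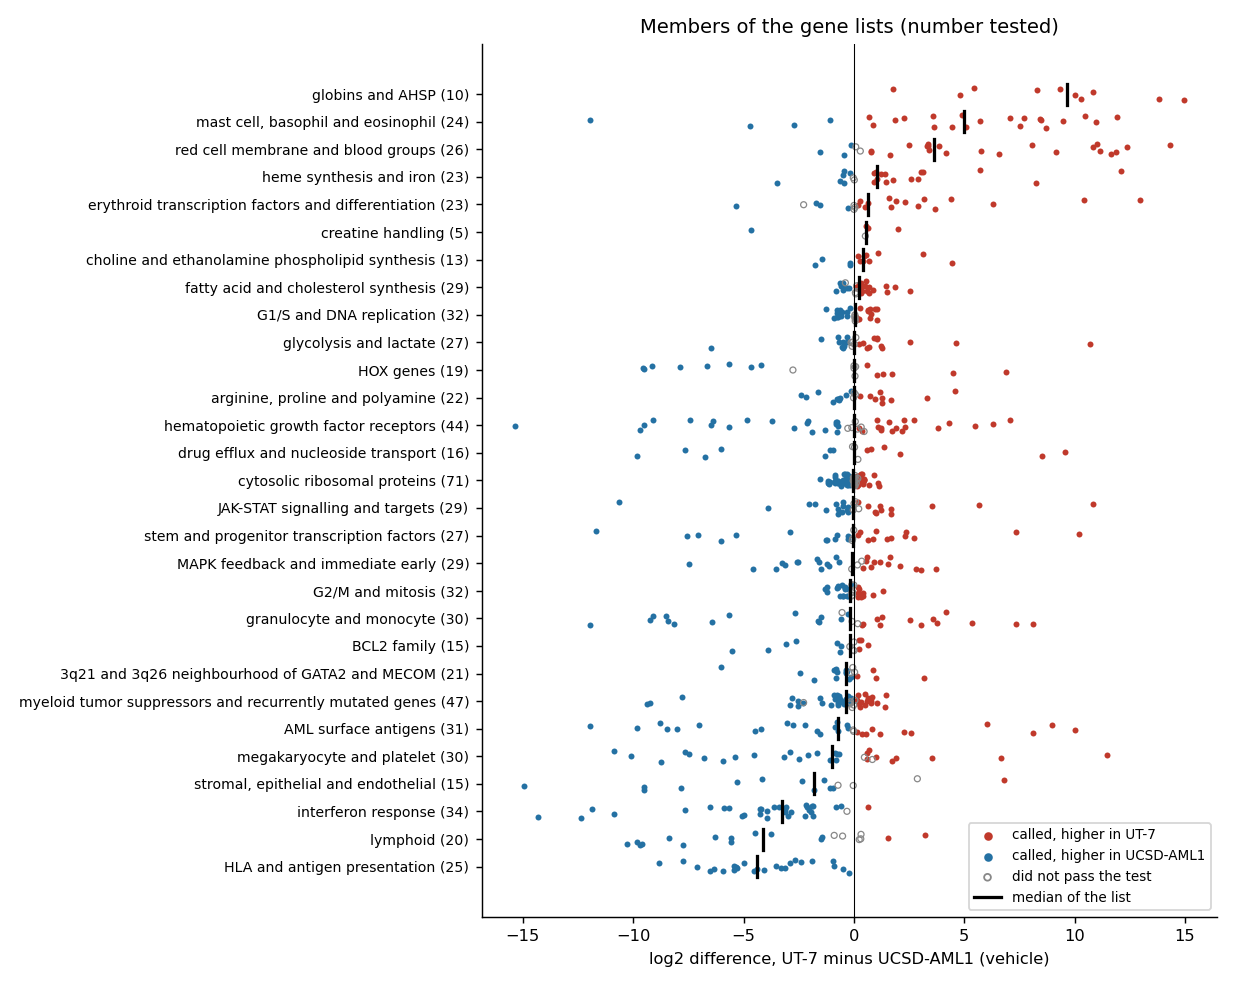
Log2 difference of each tested member (UT-7 minus UCSD-AML1, vehicle) in 29 gene lists, ordered by the list median, which is the black bar. Red and blue points are members called higher in UT-7 and in UCSD-AML1, and open points did not pass the test. The globin list (median 9.67) is at the top and the HLA and antigen presentation list (median -4.385) at the bottom.

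Of 44 tested receptors for blood growth factors, 18 were higher in UT-7 and 20 in UCSD-AML1, and the median was -0.0188. Counted at any size, these shares are near those over all genes (40.0% and 41.5%). At 2-fold or more 16 were higher in UT-7 and 15 in UCSD-AML1, larger shares than the 18.9% and 20% over all genes. EPOR, the erythropoietin receptor, measured 202, 206, 202 and 199.8 CPM in UT-7 and 2.79, 1.88, 2.76 and 2.86 CPM in UCSD-AML1, a 78.5-fold difference (log2 6.29, SE 0.0731, adjusted p 4.82e-42). CSF2RB, the chain that the receptors for GM-CSF, IL-3 and IL-5 share, measured 569, 574, 576 and 567 CPM in UT-7 and 130.5, 133, 126 and 124 CPM in UCSD-AML1 (4.46-fold). IL5RA, the IL-5 chain, had 3.24 ± 0.152 CPM in UT-7 and 1 count in UCSD-AML1. IL1R1 was 171-fold higher in UCSD-AML1 (0.500 against 87.3 CPM).

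A ligand and its receptor were found in opposite lines. LIF, the cytokine leukemia inhibitory factor, measured 304, 318, 331 and 329 CPM in UT-7 and had 3 counts in UCSD-AML1. Its receptor chain LIFR had 0 counts in UT-7 and measured 340.3, 351, 348 and 324 CPM in UCSD-AML1, at least 6571-fold higher in UCSD-AML1. OSM, a cytokine of the LIF family, was 50.3-fold higher in UT-7 (69.7 ± 3.54 against 1.37 ± 0.296 CPM).

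Of the JAK-STAT genes that carry these signals, 11 of 29 tested were higher in UT-7 and 14 in UCSD-AML1, against 40.0% and 41.5% of all genes. JAK2, the kinase that EPOR and CSF2RB use, measured 387, 388, 380.0 and 387 CPM in UT-7 and 32.5, 34.5, 32.1 and 32.7 CPM in UCSD-AML1, 11.7-fold apart (adjusted p 8.24e-42). JAK3, the kinase of lymphoid cytokine receptors, was 14.7-fold higher in UCSD-AML1. STAT4 had 15 ± 0.680 CPM in UT-7 and 0 counts in UCSD-AML1. CCND2, a D-type cyclin induced by cytokines, measured 0 to 0.381 CPM in UT-7 and 229, 279, 302 and 232 CPM in UCSD-AML1, where its libraries spread more than for most genes named here (SD 36.1 CPM). Genes that respond to MAPK signals gave 12 higher in UT-7 and 14 in UCSD-AML1 of 29 tested, against the same shares of all genes. Among them the feedback phosphatase DUSP6 was 179.9-fold higher in UCSD-AML1 (0.741 against 135 CPM), DUSP5 9.70-fold and SPRED2, an inhibitor of the pathway, 8.63-fold, while JUN was 13.3-fold higher in UT-7.

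Antigen presentation genes stood higher in UCSD-AML1 without exception among those tested. HLA class I proteins show peptides from inside the cell, and class II proteins, with the invariant chain CD74, show peptides taken up from outside. HLA-B measured 2.26, 2.14, 1.97 and 2.98 CPM in UT-7 and 530.2, 527, 478 and 489 CPM in UCSD-AML1, 218-fold apart (log2 -7.77, SE 0.0755, adjusted p 1.89e-44). CD74 measured 2.11, 3.73, 4.06 and 4.10 CPM in UT-7 and 506, 510.0, 477 and 478 CPM in UCSD-AML1, 140.2-fold apart. HLA-C was 92.4-fold and the class II chain HLA-DRA 60.5-fold higher in UCSD-AML1. B2M, the small chain of every class I molecule, measured 306, 294, 282 and 300.0 CPM in UT-7 and 1583, 1513, 1528 and 1569 CPM in UCSD-AML1, a difference of 5.24-fold only. Of 28 listed, 25 were tested, all 25 were higher in UCSD-AML1, 21 of them 2-fold or more, and the median was -4.385. HLA genes are polymorphic and similar to each other, so that their counts depend on how well each line's alleles match the reference and are uncertain. CD74 and B2M are not HLA genes. TF-1 lay nearer to UCSD-AML1 than to UT-7 for 15 of the 21, and nearer to UT-7 for 6. Over all 5685 genes called at 2-fold or more, it lay nearer to UCSD-AML1 for 2127 and to UT-7 for 3558.

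Interferon-induced genes, which cells switch on after contact with viral products or interferon, showed the same direction. OAS3, a sensor of double-stranded RNA, measured 13.8, 12.1, 14.3 and 14.2 CPM in UT-7 and 1246, 1302, 1194 and 1209 CPM in UCSD-AML1, 90.9-fold apart (log2 -6.51, SE 0.0552, adjusted p 3.85e-46). MX1, an antiviral GTPase, measured 0.211, 0.276, 0.254 and 0.224 CPM in UT-7 and 470.5, 482, 449 and 464 CPM in UCSD-AML1. IFI44L had 0 counts in UT-7 and 175, 175, 153 and 176 CPM in UCSD-AML1, at least 3279-fold higher in UCSD-AML1. MX2 had 0 counts in UT-7 and 43.5 ± 3.29 CPM in UCSD-AML1, OAS2 had 6 counts in UT-7 and 419 ± 11 CPM in UCSD-AML1, and OAS1 was 201-fold higher in UCSD-AML1. Of 34 genes, 32 were higher in UCSD-AML1, 30 of them 2-fold or more, and the median was -3.27. IRF1 alone was higher in UT-7, 1.53-fold (28.0 ± 2.36 against 18.3 ± 0.671 CPM). TF-1 was nearer to UT-7 for 25 of the 30 and nearer to UCSD-AML1 for 5. Over all 5685 genes called at 2-fold or more, it was nearer to UT-7 for 3558 and to UCSD-AML1 for 2127. In the direction opposite to the induced genes, 4 receptor subunits for interferons were higher in UT-7: IFNAR1 3.29-fold, IFNAR2 2.30-fold, IFNGR1 2.37-fold and IFNGR2 3.03-fold. Calls at 2-fold or more higher in UT-7 made up 18.9% of all genes tested. IRF1 and the 4 subunits were named after their values were seen.

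The promoters of interferon-induced genes carry a known response element, and 3 are shown. The letters GAAA, 2 bases of any kind and GAAA again, searched on both strands (TTTC, 2 bases and TTTC on the other), occurred in the 250 bases before the start of 14 of the 22 interferon genes that were called at 2-fold or more higher in UCSD-AML1 and had an entry (63.6%), and in 15 of the 25 tested interferon genes with an entry (60%). Over all tested genes with an entry they occurred in 2.46% of 11248, and over all called at 2-fold or more higher in UCSD-AML1 in 3.92% of 2143. IFI6, which was 51.0-fold higher in UCSD-AML1 (7.63 ± 0.375 against 389.5 ± 10.7 CPM), was added after its sequence was seen, because it holds the motif 3 times. The stretches, on GRCh38.p14 from RefSeq, are chr1:78620315-78620444 on the plus strand for IFI44L, chr12:112938402-112938473 on the plus strand for OAS3 and chr1:27672246-27672378 on the minus strand for IFI6. Capitals mark the motif.
IFI44L: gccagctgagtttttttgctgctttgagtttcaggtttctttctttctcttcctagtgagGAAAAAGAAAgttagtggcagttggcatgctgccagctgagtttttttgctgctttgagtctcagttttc
OAS3: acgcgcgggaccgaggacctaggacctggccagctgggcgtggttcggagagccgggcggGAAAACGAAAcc
IFI6: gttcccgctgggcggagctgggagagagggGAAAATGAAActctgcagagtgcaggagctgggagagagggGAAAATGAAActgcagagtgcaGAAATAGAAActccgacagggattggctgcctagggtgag
The motif begins 73 bases before the start of IFI44L, 12 before that of OAS3 and 156, 115 and 93 before that of IFI6. Binding at these sites was not measured.

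The series treats these lines with a creatine analog, so that the level of creatine genes at baseline is of interest. Creatine enters cells through SLC6A8, is made by GATM and GAMT, and is phosphorylated by the creatine kinases. SLC6A8 measured 34.6, 32.2, 29.1 and 31.6 CPM in UT-7 and 8.48, 10.1, 3.79 and 8.91 CPM in UCSD-AML1, 4.02-fold higher in UT-7 (log2 2.01, SE 0.185, adjusted p 3.32e-09). Its UCSD-AML1 libraries spread more than its UT-7 libraries, and SLC6A8 in TF-1 stood at 521 CPM. CKB, the cytosolic brain-type kinase, measured 623, 633, 628 and 596 CPM in UT-7 and 426, 416, 366 and 389 CPM in UCSD-AML1, 1.55-fold apart. CKM, the muscle-type kinase, was 1.46-fold higher in UT-7 (8.52 ± 1.43 against 5.87 ± 0.560 CPM, adjusted p 0.000294). GAMT went the other way, with 1.48, 2.41, 1.84 and 2.01 CPM in UT-7 and 51.0, 50, 48.3 and 47.4 CPM in UCSD-AML1, 25.3-fold apart. GATM had 12 counts in UT-7 and 9 in UCSD-AML1 and did not pass the test (adjusted p 0.480). CKMT1A and CKMT1B, which are near-identical copies and encode a mitochondrial kinase, had 0 counts in both groups, and CKMT2 had 22 counts in each. These 3 genes did not pass the filter on low counts and were not tested. How the counting treated reads that match both CKMT1A and CKMT1B is uncertain, so that 0 counts do not show their absence.

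Metabolic genes held both directions. Of all genes tested, 40.0% were higher in UT-7 and 41.5% in UCSD-AML1. PKLR, the pyruvate kinase of red cells and liver, had 65.5 ± 2.17 CPM in UT-7 and 2 counts in UCSD-AML1, while PKM, the common form, was 2.79-fold higher in UCSD-AML1 (782 ± 8.18 against 2179 ± 63.4 CPM). Over 27 glycolysis genes, 12 were higher in UT-7 and 10 in UCSD-AML1, with a median of 0.0166. Of 29 fatty acid and cholesterol genes, 17 were higher in UT-7 and 8 in UCSD-AML1, with a median of 0.246. CYP51A1, of the cholesterol pathway, was 5.77-fold higher in UT-7. Phospholipid synthesis genes gave 9 higher in UT-7 and 4 in UCSD-AML1 of 13 tested among 15, with CHPT1, a choline phosphotransferase, 21.6-fold higher in UT-7. Arginine, proline and polyamine genes gave 9 and 10 of 22 tested. Of the transporters that remove drugs, ABCB1, the multidrug pump, had 53.3 ± 1.68 CPM in UT-7 and 4 counts in UCSD-AML1, and ABCG1, which exports cholesterol, had 54.2 ± 2.15 CPM in UCSD-AML1 and 3 counts in UT-7.

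Tumor suppressors and genes often mutated in myeloid leukemia gave 15 higher in UT-7 and 26 in UCSD-AML1 of 47, with a median of -0.353. Of all genes tested, 40.0% were higher in UT-7 and 41.5% in UCSD-AML1. NF1, a brake on RAS, was 7.48-fold and CBL, which marks receptors for degradation, 5.78-fold higher in UCSD-AML1. In the BCL2 family, 4 of 15 tested were higher in UT-7 and 7 in UCSD-AML1, against the same shares of all genes. BCL2A1, a survival factor, was 46.5-fold and BIK, a promoter of cell death, 8.39-fold higher in UCSD-AML1, and BCL2L11, which encodes the killer protein BIM, was 1.56-fold higher in UT-7.

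Lists of growth and division genes had medians near 0. The median was 0.0394 over 32 genes of DNA replication, -0.175 over 32 mitotic genes and -0.0252 over 71 ribosomal protein genes. In these lists 3, 4 and 7 members were called at 2-fold or more in either direction, against 39.0% of all genes. Counted at any size, 13, 9 and 22 were higher in UT-7, against 40.0% of all genes. In UCSD-AML1 15, 17 and 34 were higher, against 41.5%. MKI67, the proliferation marker Ki-67, measured 270.2, 269.7, 263 and 297 CPM in UT-7 and 469, 499, 445 and 462 CPM in UCSD-AML1, 1.70-fold higher in UCSD-AML1. CDK1, the kinase of mitotic entry, was 2.30-fold higher in UCSD-AML1 and TTK, a spindle checkpoint kinase, 2.45-fold higher in UT-7.

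Some genes were all but restricted to 1 line. At most 3 counts over the 4 libraries of UCSD-AML1 were found for 387 genes with at least 1 CPM in UT-7, of which 141 had at least 10 CPM and 15 at least 100 CPM. The reverse held for 336, 150 and 22 genes with those levels in UCSD-AML1. PLIN2, which coats lipid droplets, measured 595, 596, 577 and 583 CPM in UT-7 and 0 counts in UCSD-AML1, at least 12363-fold higher in UT-7. KCNH2, a potassium channel gene, measured 497, 516, 503 and 498 CPM in UT-7 and 0 counts in UCSD-AML1, at least 10589-fold higher in UT-7, and MAN1A1, a mannosidase of the Golgi, was at least 8074-fold higher. NR2F2, PIEZO2, GABRE, TMEM246 and TEX15 also had 0 counts in UCSD-AML1, at 209.9, 110.0, 93.2, 92.4 and 88.5 CPM in UT-7. In the other direction APP, the amyloid precursor gene, had 0 counts in UT-7 and measured 349, 364, 369 and 351 CPM in UCSD-AML1, at least 6901-fold higher in UCSD-AML1. FGD5, GPC3, TNFSF8, ZNF503, DOCK1, IGF2BP2 and GUCY1A3 had 0 counts in UT-7 as well, at 292, 259, 242, 203, 140.1, 137 and 105 CPM in UCSD-AML1. BTN1A1, a butyrophilin, had 2 counts in UT-7 and 751, 776, 737 and 748 CPM in UCSD-AML1. IGFBP2, a binding protein of insulin-like growth factors, had 2 counts in UT-7 and 379.6 ± 21.7 CPM in UCSD-AML1.

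By absolute level, the largest differences lay in abundant genes. PRKCSH, a glucosidase subunit of the endoplasmic reticulum, measured 3389.9, 3432, 3499 and 3327 CPM in UT-7 and 278, 275, 277 and 260.4 CPM in UCSD-AML1, 12.5-fold apart. GLUL, glutamine synthetase, was 12.2-fold higher in UT-7 (2972 ± 30.3 against 243 ± 4.93 CPM), and HPGD, which inactivates prostaglandins, 39.0-fold (1633 ± 52.8 against 41.9 ± 1.53 CPM). PRDX1, a peroxidase that removes hydrogen peroxide, measured 359.9, 363, 359.6 and 355 CPM in UT-7 and 6283, 6091, 6057 and 6059 CPM in UCSD-AML1, 17-fold apart. AKR1A1, an aldehyde reductase, was 13-fold and SLC38A1, a glutamine transporter, 345-fold higher in UCSD-AML1 (3.61 ± 0.629 against 1250.4 ± 37.8 CPM).

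The direction of the difference varied with the chromosome. Chromosomes and gene order were taken from RefSeq annotation of GRCh38.p14, to which 14245 of the tested genes were matched (97.65%), and no coordinates of the count files are used. On chromosome 7, 455 of 664 genes were higher in UT-7 (68.5%), 128 were higher in UCSD-AML1, and the median was 0.718. On chromosome 21, 104 of 149 were higher in UT-7 (69.8%) and the median was 0.901. Chromosomes 19 and 6 had medians of 0.468 and 0.438. In the other direction the medians were -0.624 on chromosome 3, where 504 of 814 genes were higher in UCSD-AML1, -0.435 on chromosome 22, -0.410 on chromosome 4 and -0.380 on chromosome 2. With no filter on low counts, which adds genes near 0 in both lines, these medians were nearer to 0 in both directions. They were then 0.646 on chromosome 7, 0.767 on chromosome 21, 0.4165 on chromosome 19 and 0.388 on chromosome 6. The negative ones were -0.368 on chromosome 3, -0.2804 on chromosome 22, -0.195 on chromosome 4 and -0.254 on chromosome 2. The SE of a chromosome median over libraries was at most 0.0146. Against TF-1, which both comparisons share, the median of chromosome 7 was 0.010 for UT-7 and -0.689 for UCSD-AML1, and that of chromosome 21 was 0.331 and -0.693. Chromosome 3 gave -0.4595 for UT-7 and 0.136 for UCSD-AML1. DNA copy number of these lines is not analysed here, and its part in these values was not tested.

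Within some chromosomes, stretches of neighbouring genes leaned to 1 line. Whether such stretches account for the chromosome medians was not tested. Medians were taken over runs of 21 neighbouring genes with at least 5 CPM in a line, and over 10137 runs the lowest and highest 1% lay beyond -1.23 and 1.34. The stretches that follow were bounded after their values were seen, and their counts are descriptions. Around EPOR on chromosome 19, from ZNF317 to ZNF439, 66 of 74 tested genes were higher in UT-7, 62 of them 2-fold or more, 4 were higher in UCSD-AML1, and the median was 1.88. EPOR (log2 6.29) and PRKCSH (log2 3.65) both lie in that stretch. Against TF-1 the median of the stretch was 1.44 in UT-7 and -0.498 in UCSD-AML1. At the start of the same chromosome, from MIER2 to MAP2K2, 86 of 112 genes were higher in UCSD-AML1, 8 in UT-7, and the median was -0.756, a smaller shift than the limit given for runs of 21. The lowest run medians, over runs that share no gene, included -2.02 on chromosome 6 (TNXB to HLA-DPB1, holding class II HLA genes). Further low runs were -1.82 on chromosome 12 (GDF3 to CLEC9A) and -1.61 on chromosome 10 (PTPLA to APBB1IP). On chromosome 3 they were -1.66 (RAD54L2 to STAB1), -1.63 (ZNF445 to KIF9) and -1.59 (BRPF1 to ATG7). The highest on chromosome 19 were 2.82 (C19orf52 to ZNF440), 1.77 (ZNF266 to ZGLP1) and 1.56 (ZNF473 to FPR3). Further high runs were 2.075 on chromosome 9 (RCL1 to PLIN2), 1.48 on chromosome 7 (PMS2P1 to PLOD3) and 1.34 on chromosome 21 (ICOSLG to YBEY).

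Chromosome 9 held a pair of contrasting stretches. From FOXD4 to RANBP6, at the end of its short arm, 23 of 26 tested genes were higher in UT-7, 3 in UCSD-AML1, and the median was 1.82. JAK2 and the chromatin remodeler SMARCA2 lie there. SMARCA2 measured 2103, 2083, 2022 and 2122 CPM in UT-7 and 235, 244, 229 and 218 CPM in UCSD-AML1, and 71.4 CPM in TF-1. Further along, from MLLT3 to CDKN2B, 7 of 8 tested genes were higher in UCSD-AML1 and 0 in UT-7. MLLT3, a chromatin reader of stem cells, had 3 counts in UT-7 and 259, 245, 263 and 251 CPM in UCSD-AML1. Its neighbour FOCAD had 1 count, KLHL9 and PTPLAD2 had 0 counts and MTAP, which salvages methionine, 6 counts in UT-7, against 106, 85.6, 47.6 and 74.5 CPM in UCSD-AML1. TF-1 had 96.5 CPM of MLLT3, 58.3 of FOCAD, 50.1 of KLHL9, 12.8 of PTPLAD2 and 83.7 of MTAP. CDKN2A, which encodes the cell cycle inhibitor p16, had 0 counts in UT-7, 1.81 ± 0.286 CPM in UCSD-AML1 and 310.4 CPM in TF-1. CDKN2B, its neighbour and a related inhibitor, had 0 counts in UT-7 and 2 in UCSD-AML1 and did not pass the test, and CDKN2B-AS1, the antisense gene beside it, was 2.33-fold higher in UCSD-AML1 on 15 and 39 counts. The last call was lost without UT-7 library 2 (adjusted p 0.0891) or without UCSD-AML1 library 1 or 3 (adjusted p 0.0859 and 0.0509). Genes of this stretch and the boundary genes of the others were named after their values were seen.

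**Figure D4:**
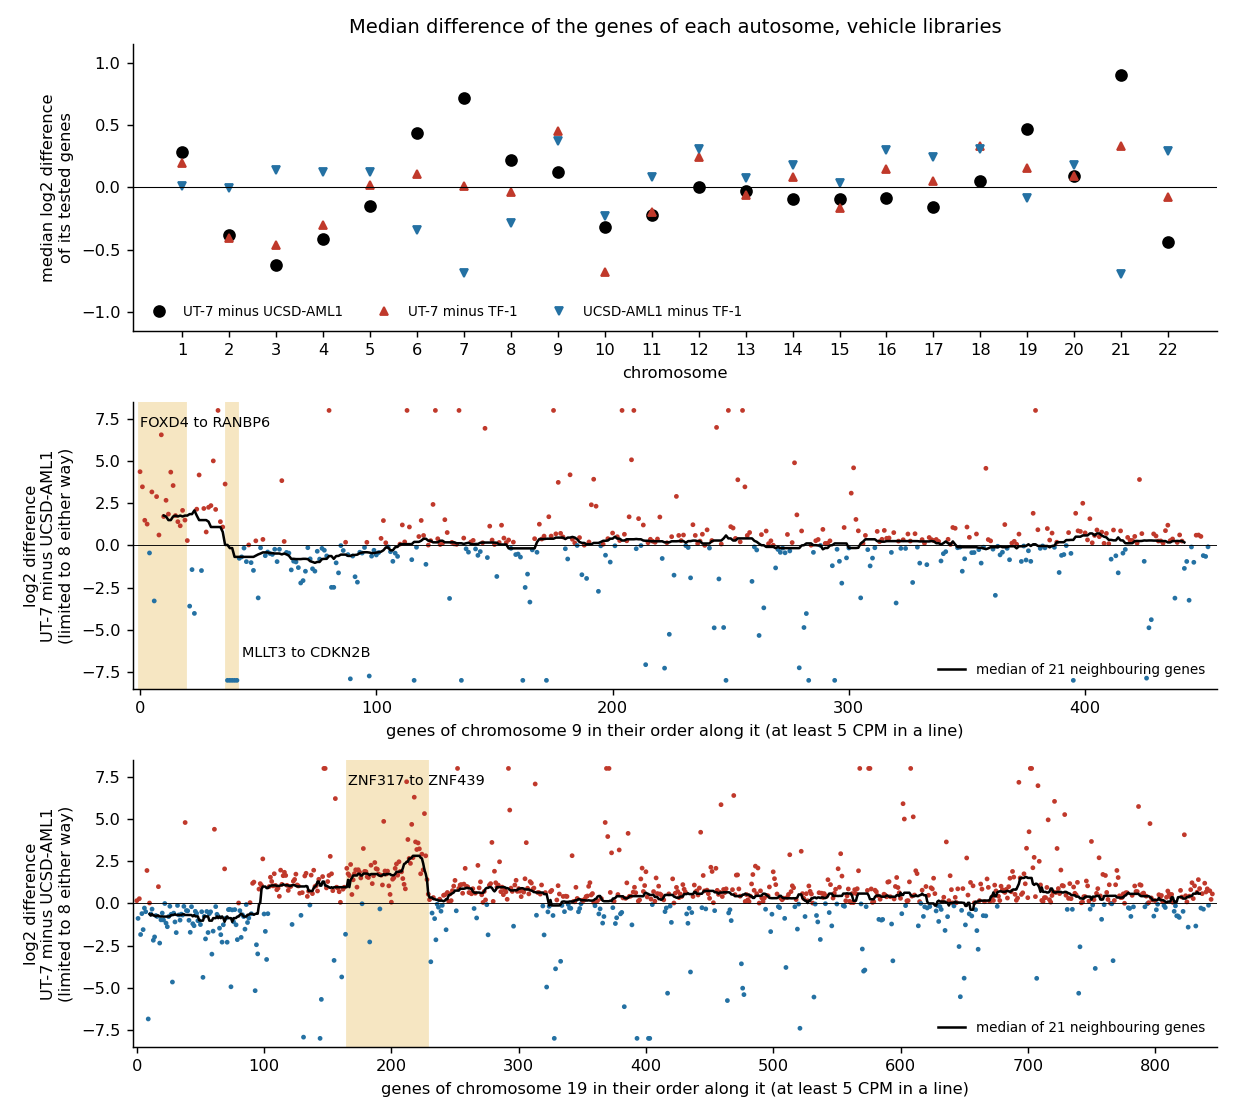
Top, median log2 difference of the tested genes of each autosome, for UT-7 minus UCSD-AML1 (black circles) and for each line minus TF-1 (red and blue triangles). Middle and bottom, log2 difference of each gene of chromosomes 9 and 19 in gene order, drawn no further than 8 either way, with the median of 21 neighbours as a line and the stretches around EPOR, from FOXD4 to RANBP6 and from MLLT3 to CDKN2B shaded. The line rises to its highest values in the stretch from ZNF317 to ZNF439.

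The same comparison was made between the cyclocreatine libraries, whose counts do not enter the baseline levels. Both sets of calls share the filter and the estimate of the spread, so that they are not independent in that respect. There, UT-7 and UCSD-AML1 differed at 11907 of 14588 genes (81.6%). Of the 11889 genes called with vehicle, 10691 (89.9%) were called with the same sign and 155 with the opposite sign. Of the 5685 called at 2-fold or more with vehicle, 5497 (96.7%) were called with the same sign, 184 were not called and 4 were called with the opposite sign. Those that were called at 2-fold or more both times were HIST2H2BE, a histone gene (2.30 against 6.46 CPM with vehicle, 7.78 against 3.42 CPM with cyclocreatine), and SPRED3, an inhibitor of RAS signals (0.685 against 1.78 CPM with vehicle, 3.73 against 1.35 CPM with cyclocreatine), in UT-7 against UCSD-AML1 each time. These genes, like ISG20 and SAMHD1, were named after their values were seen. MECOM remained apart under treatment, at 3.78 CPM in UT-7 and 339 CPM in UCSD-AML1, as did GATA1 at 244 and 16.6 CPM. All 25 tested antigen presentation genes were called with the same sign, as were 32 of the 34 interferon genes. The exceptions were ISG20, not called either time, and SAMHD1, which was 1.76-fold higher in UCSD-AML1 with vehicle and did not pass the test with cyclocreatine (adjusted p 0.688). SLC6A8 measured 11.1 CPM in UT-7 and 1.55 CPM in UCSD-AML1 with cyclocreatine. MKI67 did not pass the test with cyclocreatine, at 436 CPM in UT-7 and 424 CPM in UCSD-AML1 (adjusted p 0.713). Whether the line difference itself changed with treatment was not tested.

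**Figure D5:**
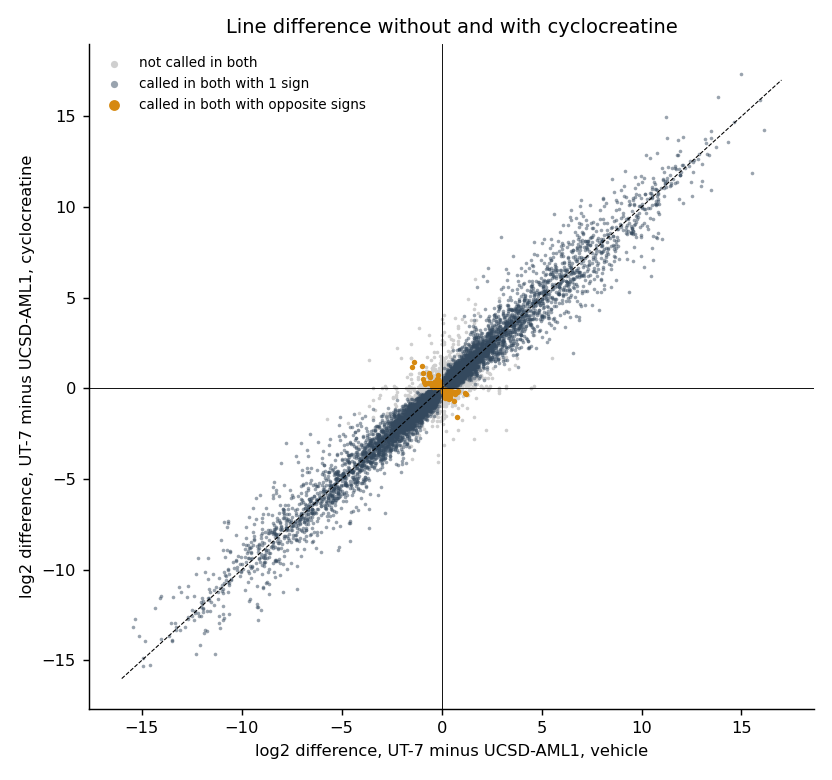
Log2 difference of each tested gene, UT-7 minus UCSD-AML1, with vehicle (x axis) and with cyclocreatine (y axis), and the line of equal differences dashed. Dark points are the 10691 genes called in both with 1 sign and orange points the 155 called with opposite signs, which lie near the centre.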

How the data were processed

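RNA-seq counts per gene were deposited for each library, and the whole numbers in the deposited files are used as they stand. Per the submitters' processing notes, FastQC, TopHat2, RSEM and build hg19 (GRCh37) were used. For versions, roles, strand use and annotation, the sources used here give nothing. Genes were tested with edgeR 4.0.16 (R 4.3.3) in 1 model of the 24 libraries in 6 groups, with filterByExpr (minimum count 10, minimum total 15), TMM scaling and robust quasi-likelihood fits on 18 residual degrees of freedom. The two-sided p-values were adjusted by Benjamini-Hochberg over the 14588 genes tested of 25728. The script was tested on simulated data. CPM use the scaled totals, and means carry the SD of 4 libraries. Alternatives used DESeq2 1.42.0 and limma 3.58.1. Tables, motifs and plots were made with Python 3.11.15, pandas 2.3.3, numpy 2.4.6, scipy 1.17.1 and matplotlib 3.10.9.

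The comparison, the gene lists and the tests were chosen with earlier results of these data known. Genes were named by rule: per direction the 12 largest differences among called genes with at least 20 CPM and no overlap, the 8 largest differences in CPM and the 8 highest genes with at most 3 counts in the other line, up to 6 called members of each list with at least 1 CPM, and a set of regulators, receptors and creatine genes. Others are marked where they are named. Some genes that the rule names are not reported here. Pairs of libraries of 1 line differed by more than sampling noise, and all counted as separate samples. That difference does not show that they came from separate cultures.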

Additional observations from a re-analysis of the deposited data

Results flagged for a closer look

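In 19 of 239 groups of 4 libraries, 1 library lay further from the nearest of the others than Dixon's 95% critical value for 4 samples allows as a share of the group's range. Named genes were checked in each line where their mean reached 1 CPM, and chance gives such a gap in about 1 in 20 groups. UCSD-AML1 library 1 lay above the other 3 libraries for PRDX1 (6283 CPM, the others 6057 to 6091 CPM). UCSD-AML1 library 2 lay above the other 3 libraries for CEBPA (121 CPM, the others 119 CPM each), CKM (6.70 CPM, the others 5.46 to 5.66 CPM) and TAL1 (265 CPM, the others 256 to 257 CPM). UCSD-AML1 library 2 lay below the other 3 libraries for EPOR (1.88 CPM, the others 2.76 to 2.86 CPM). UCSD-AML1 library 3 lay above the other 3 libraries for BCL11A (64.9 CPM, the others 56.4 to 57.7 CPM). UCSD-AML1 library 3 lay below the other 3 libraries for ABCG1 (51.0 CPM, the others 54.8 to 55.5 CPM), GATA2 (389 CPM, the others 404 to 407 CPM) and IFI44L (153 CPM, the others 175 to 176 CPM). UCSD-AML1 library 4 lay below the other 3 libraries for CD93 (412 CPM, the others 440.1 to 443 CPM), GLUL (236 CPM, the others 245 to 246 CPM), HOXA7 (4.72 CPM, the others 6.55 to 6.71 CPM) and ISG20 (0.731 CPM, the others 1.24 to 1.31 CPM). UCSD-AML1 library 4 lay below the other 3 libraries for PRKCSH (260.4 CPM, the others 275 to 278 CPM). UT-7 library 1 lay above the other 3 libraries for CHPT1 (118 CPM, the others 108 to 109 CPM). UT-7 library 1 lay below the other 3 libraries for OSM (64.3 CPM, the others 71.3 to 71.6 CPM). UT-7 library 2 lay below the other 3 libraries for ABCB1 (50.8 CPM, the others 54.0 to 54.4 CPM). UT-7 library 3 lay above the other 3 libraries for GABRE (97.9 CPM, the others 91.3 to 92.0 CPM). UT-7 library 3 lay below the other 3 libraries for JAK2 (380.0 CPM, the others 387 to 388 CPM). Each of these genes kept the direction of its difference between the lines without the library concerned.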

How the results depend on the processing

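Over 15 alternative settings, the genes called higher in UT-7 numbered 5756 to 6343 and those higher in UCSD-AML1 5829 to 6288. At 2-fold or more they numbered 2477 to 3275 and 2637 to 3298, with the lowest values from the 8 vehicle libraries alone and the highest with no filter on low counts. Leaving out 1 library at a time gave 5756 to 5778 and 5941 to 5984 genes, 2769 to 2800 and 2905 to 2961 at 2-fold or more, and 10587 to 10642 genes called with the same sign in the cyclocreatine libraries. Of 3550 values of named genes under these settings, 3547 kept their direction and their side of the threshold and 0 reversed. The other 3 were those of CDKN2B-AS1 given above. Of 870 counts of list members, 868 stayed within 1.5 times, and the others were the lymphoid genes higher in UT-7 (1 with the 8 vehicle libraries alone) and the stromal, epithelial and endothelial genes higher in UT-7 (3 with no filter). Other scalings moved the median of all genes by at most 0.0274.

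Deviations of same-numbered libraries of the lines had correlations of 0.00312, 0.0306, -0.0171 and 0.0328. Differently numbered libraries ranged from -0.0252 to 0.0339. Correlations over all genes cannot show whether the numbers pair the libraries, since a factor shared by few genes would hardly move them. With the replicate number as a block, 5827 and 6039 genes were called, 2762 and 2918 at 2-fold or more, and 10681 with the same sign in the cyclocreatine libraries. Genes with few counts in 1 line are limited by depth, so that their ratios carry wide intervals or are lower bounds.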
